A study of Mus musculus with 32 samples.

Results

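Of the 47643 genes in the count table of epididymal white adipose tissue (eWAT) and liver, 10 are taken here as known markers of the progenitor and stromal cells of fat. They are the growth factor receptors Pdgfra and Pdgfrb, the surface and secreted proteins Dpp4, Pi16 and Cd55, the surface glycoproteins Cd34, Ly6a, Thy1 and Cd248, and the preadipocyte factor Dlk1. They were found by matching gene identifiers to mouse symbols, and the set was drawn up with earlier results of these data known. All 10 passed the filter on low counts in eWAT, which 15187 genes passed. Their levels are described over the 16 eWAT libraries, 4 from each of 4 groups of male C57BL/6 mice aged 10 weeks (C57BL/6J in the study's methods). The mice drank water with corticosterone (Cort), the main glucocorticoid of rodents, or with vehicle (Veh) for 7 days. They ate a normal-protein diet (NPD, 20% of kcal from protein) or a high-protein diet (HPD, 60% of kcal from protein), in which carbohydrate was reduced so that calories matched. The groups are named by treatment and diet (Veh NPD, Cort NPD, Veh HPD, Cort HPD), and all groups were of 1 strain. The labels give a replicate number but do not say that each library is 1 mouse, so that the p-values below measure the spread between these libraries.

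Fat tissue is built from mature adipocytes and a stromal vascular fraction that holds progenitors, fibroblasts, vessel cells and immune cells. In mouse fat, cells carrying the receptor Pdgfra include the progenitors that give rise to new adipocytes. Cells with Dpp4, Pi16 and Cd55 form a layer of early progenitors in the reticular interstitium around the depot, which can pass into committed preadipocytes that have lost these markers. Cd34, Ly6a (Sca-1), Thy1 and Cd248 are used to sort or to recognise stromal cells, and Dlk1 is a transmembrane protein whose shed form restrains adipocyte differentiation. None of the 10 genes is exclusive to progenitors: Pdgfrb also marks pericytes, Cd34 and Ly6a are on endothelial cells, Dpp4 is on some T cells and Thy1 is on T cells.

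The 250 bases before the annotated start were taken from RefSeq (build GRCm38.p6), whose promoter table matched 6 of the 10 genes, namely Pdgfra, Dpp4, Pi16, Cd34, Cd55 and Dlk1. Since the genes were compared between Cort and Veh, the windows were searched on both strands for the palindromic element that the glucocorticoid receptor binds, spelled AGAACA, any 3 bases and TGTTCT, and for its single arm AGAACA, which is part of the full element. The full element was in none of the 6 windows, and 0.00913% of all 32851 promoter windows of that length held it. The single arm was in 2 of the 6, against 16.1% of all windows. It lay 203 bases before the start of Dpp4. In Pi16 it lay 27 bases before the RefSeq start, which is inside the first exon of longer annotated Pi16 transcripts, so that this window is not upstream of the gene as annotated. The window of Dpp4 (chr2:62412232-62412481, minus strand), in which the arm is in capitals, and that of Cd34 (chr1:194938571-194938820, plus strand), which held no match and whose last bases reach the annotated first exon, are shown because both genes were lower in Cort libraries (below). A match describes letters and not a bound site, and its absence says nothing of the receptor.
Dpp4: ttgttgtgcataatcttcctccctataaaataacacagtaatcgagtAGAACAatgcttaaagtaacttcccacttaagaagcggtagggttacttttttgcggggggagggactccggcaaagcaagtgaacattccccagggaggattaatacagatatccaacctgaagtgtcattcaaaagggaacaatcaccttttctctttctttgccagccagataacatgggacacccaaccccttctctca
Cd34: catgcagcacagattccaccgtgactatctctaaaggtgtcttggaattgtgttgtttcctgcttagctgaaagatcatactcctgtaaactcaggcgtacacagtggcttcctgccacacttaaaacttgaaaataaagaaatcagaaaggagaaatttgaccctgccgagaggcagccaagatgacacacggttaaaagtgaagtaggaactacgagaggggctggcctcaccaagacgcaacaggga

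Counts summed to between 9794683 and 18057936 per eWAT library. Levels are CPM, the standard unit that divides a gene's count by the total count of its library, after scaling by the trimmed mean of M-values (TMM), and because the libraries read the 3′ end of transcripts, CPM was not divided by gene length. Annotated antisense genes overlap Pdgfra, Dpp4, Pi16, Cd34 and Cd55, and whether counting used the strand is not given in the sources used here. One library stood apart in its epididymal transcripts. Cort HPD replicate 4 held transcripts of the epididymis, the organ beside this fat depot: the 9 epididymal marker genes summed to 11584 CPM in it and to at most 11.7 CPM in the other 15 libraries. Cort HPD replicates 1, 2 and 3 were at 1.13, 8.21 and 11.7 CPM, Cort NPD libraries at up to 5.02 CPM and Veh libraries at up to 3.70 CPM. The Cort effects of the 10 genes are given with and without Cort HPD replicate 4 where it changed them most. The counts of the other gene lists without that library follow those lists. Veh HPD replicate 4 differed in other ways. It had the lowest Veh sums of the 10 genes (355 CPM), fibroblast matrix genes (6708 CPM) and pericyte and smooth muscle genes (420 CPM). Its mature adipocyte sum (62428 CPM) was the highest of all eWAT libraries. Without it, 1265 genes and not 925 were called for Cort on the HPD, and 2789 and not 2360 over both diets. Why it differed was not tested. Known target genes of the glucocorticoid receptor, were read as a check of the treatment, and whether the diets differed is not drawn from which of them passed the test. On the NPD Fkbp5, which encodes an immunophilin, was higher in Cort (log2 fold change 1.74, SE 0.39, adjusted p = 0.016 by edgeR's quasi-likelihood test), and the other 5 targets did not pass. On the HPD Fkbp5 did not pass (0.60, SE 0.38, adjusted p = 0.45): it was at 41.7, 144, 45.6 and 153 CPM in Veh and at 122, 143, 143 and 176 CPM in Cort, with overlap. No target was called higher on the HPD, and 2 were called lower, the kinase gene Sgk1 (-1.14, SE 0.26, adjusted p = 0.011) and the transcription factor gene Zbtb16 (-1.24, SE 0.33, adjusted p = 0.043; -1.06, adjusted p = 0.11 without Cort HPD replicate 4). Averaged over both diets Fkbp5 was higher (1.17, SE 0.27, adjusted p = 0.011), Sgk1 was lower (-0.98, SE 0.18, adjusted p = 8.2e-04) and the other 4 did not pass.

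In Veh NPD libraries Ly6a was the highest of the 10 genes at 173 ± 27.8 CPM (SD, n = 4) and Cd34 followed at 86.0 ± 11.3 CPM. Pdgfra (40.4 ± 11.4), Cd248 (32.8 ± 8.03), Cd55 (27.0 ± 3.46), Pdgfrb (22.3 ± 3.16), Dpp4 (22.3 ± 1.57), Thy1 (22.1 ± 5.13) and Pi16 (14.3 ± 2.98) came next, and each of these overlapped its neighbour in the order over the 4 libraries. Dlk1 was far below the rest at 1.25 ± 0.309 CPM. Ly6a did not overlap Cd34, Cd34 did not overlap Pdgfra, and Pi16 did not overlap Dlk1. This order compares CPM and not levels per length. All 10 genes were detected in every Veh eWAT library of both diets, beside mature adipocyte markers that summed to 38903 to 62428 CPM in the Veh libraries. In the 16 liver libraries, scaled separately and so set beside eWAT without a test, Dpp4 was at 35.4 to 168 CPM, above its eWAT range of 10.1 to 30.8 CPM. The other 9 genes were below their eWAT range in liver, Pi16 at 0 to 0.241 CPM, Cd34 at 0.23 to 2.32 CPM and Ly6a at 4.33 to 65.2 CPM, except that Dlk1 (0 to 0.883 CPM) overlapped its eWAT range.

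**Figure D1:**
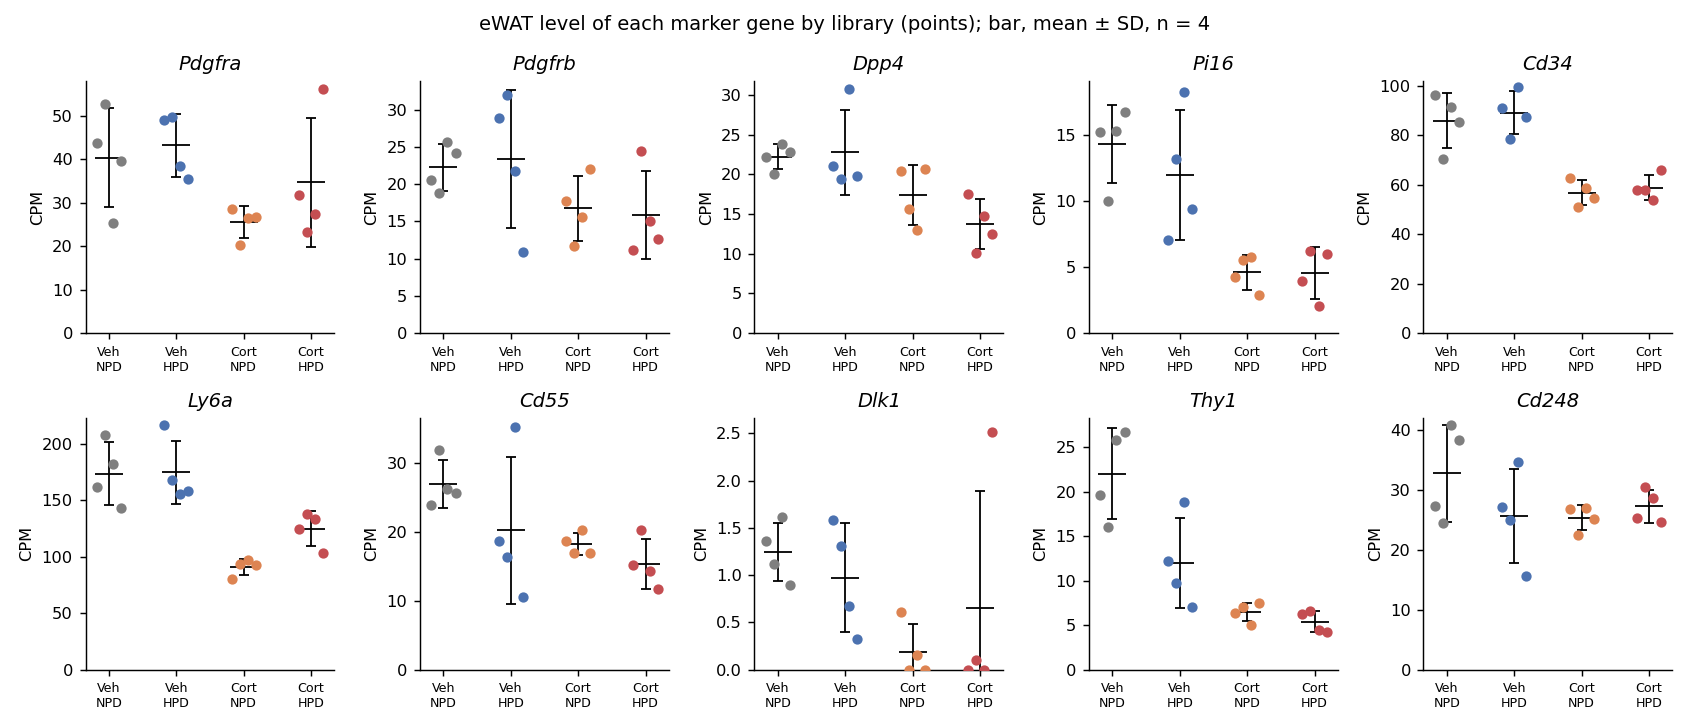
Level of each of the 10 genes in CPM (vertical axis, from 0) in the 4 eWAT groups (horizontal axis); points are the 4 libraries of a group in the order of their replicate numbers, and bars are the mean and SD. The Cort libraries of Pi16, Cd34 and Ly6a all lie below the Veh libraries, and for Dlk1 the library Cort HPD replicate 4 lies at 2.51 CPM, above all others.

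Part of this marker set was lower in Cort than in Veh eWAT on both diets. On the NPD 4 of the 10 genes were lower in Cort than in Veh (Pi16, Cd34, Ly6a and Thy1), where 3.93% of all genes tested were called lower. On the HPD 5 were lower (the same 4 and Dpp4), where 2.63% of all genes were. Averaged over both diets the same 5 were lower, against 7.41% of all genes, and none was higher, against 8.13%. The log2 fold changes of the 10 genes had a median of -0.63 on the NPD, -0.56 on the HPD and -0.57 over both, where the medians of all genes tested were -0.02, -0.0025 and -0.02. They were negative for 10 genes on the NPD, where 52.5% of all genes were negative. On the HPD they were negative for 9, the exception being Cd248, where 50.3% of all genes were negative. Summed over the 10 genes, the level ran from 355 to 473 CPM in the 8 Veh libraries and from 244 to 317 CPM in the 8 Cort libraries. This sum weighs most on Ly6a and Cd34, both called lower, which were at 173 and 86.0 CPM in Veh NPD libraries. Of all genes called on the NPD, 49.26% were lower with TMM scaling and 63.87% with library totals alone, and over both diets these shares were 47.67% and 61.43%. In bulk tissue, fewer cells of a type and less RNA per cell cannot be told apart. The count on the HPD was the least firm: dropping Veh HPD replicate 3 left 2 genes, and dropping either Veh HPD replicate 1 or Cort HPD replicate 4 left 3. In that last case Pi16 (log2 fold change -1.58, adjusted p = 0.0080), Cd34 (-0.66, adjusted p = 0.0026) and Thy1 (-1.05, adjusted p = 0.036) kept the call on the HPD. The same omission raised the other counts, to 5 genes lower on the NPD and 7 over both diets. Pdgfra was gained in both comparisons and Dlk1 over both diets.

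The genes that mark the reticular progenitor layer differed in how firmly they moved. Pi16 (ENSMUSG00000024011, chromosome 17 from 29317680 to 29330593, GRCm38) encodes a secreted protein of the CAP superfamily and is a marker of that layer. It was at 15.3, 9.98, 15.3 and 16.7 CPM in Veh NPD and at 4.28, 5.52, 5.76 and 2.85 CPM in Cort NPD. On the HPD it was at 7.04, 13.2, 18.3 and 9.41 CPM in Veh and at 3.95, 6.21, 2.06 and 5.99 CPM in Cort. Every Cort library was thus below every Veh library, and the Cort mean was 34.8% of the Veh mean over 8 libraries each. On the NPD the log2 fold change was -1.63 (SE 0.34, adjusted p = 0.0023) and the HPD value was -1.40 (SE 0.34, adjusted p = 0.011, edgeR's quasi-likelihood test, as for all adjusted p-values here). Without Veh HPD replicate 3, the highest library, the HPD value was -1.12 with an adjusted p of 0.062.

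Dpp4 (ENSMUSG00000035000, chromosome 2 from 62330073 to 62412231), a peptidase anchored in the membrane, was at 22.2, 20.1, 23.8 and 22.9 CPM in Veh NPD and at 20.4, 15.6, 13.01 and 20.7 CPM in Cort NPD. These groups overlapped. In Veh HPD it was at 21.1, 19.5, 30.8 and 19.8 CPM and in Cort HPD at 17.5, 10.1, 14.8 and 12.5 CPM, with no overlap. On the NPD the log2 fold change was -0.35 (SE 0.20, adjusted p = 0.36), the HPD value was -0.73 (SE 0.21, adjusted p = 0.032) and the value over both diets was -0.54 (SE 0.14, adjusted p = 0.010). The difference between the diets was not significant (interaction -0.38, SE 0.29, adjusted p = 0.99). When single libraries were dropped, the HPD call did not hold in 5 of 16 cases: without Veh HPD replicate 3 (adjusted p = 0.16), Veh HPD replicate 1 (0.054), Cort HPD replicate 2 (0.11), Cort HPD replicate 3 (0.055) and Cort HPD replicate 4 (0.081).

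Cd55 (ENSMUSG00000026399, chromosome 1 from 130439027 to 130462744), an anchored inhibitor of complement, was at 24.0, 31.9, 26.2 and 25.7 CPM in Veh NPD and at 18.7, 17.0, 20.3 and 17.0 CPM in Cort NPD. These groups did not overlap. Veh HPD spread from 10.6 to 35.3 CPM and enclosed all 4 Cort HPD libraries, which ran from 11.6 to 20.3 CPM. Cd55 did not pass the test on the NPD (log2 fold change -0.56, SE 0.25, adjusted p = 0.20), the HPD (-0.40, SE 0.25, adjusted p = 0.42) or over both diets (-0.48, SE 0.18, adjusted p = 0.067). With no single library dropped, Cd55 passed in 1 of 7 alternative fits on the NPD, 0 of 7 on the HPD and 1 of 6 over both diets. Without Veh HPD replicate 4, its lowest Veh library, the value over both diets was -0.59 and passed (adjusted p = 0.0077). It also passed once Cort HPD replicate 2 was dropped (-0.56, adjusted p = 0.039). Dropping Cort HPD replicate 4 gave -0.29 on the HPD (adjusted p = 0.65) and -0.42 over both diets (adjusted p = 0.11). A stretch of 232 bases of a Cd55 transcript is also in the neighbouring copy Cd55b, so that reads from there could have been counted for either.

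Of 12 other markers of the Dpp4 lineage, 11 passed the filter (Wnt2 did not) and 3 were lower over both diets, none higher. Pcolce2, which helps to process procollagen, was at -0.79 (SE 0.14, adjusted p = 2.7e-04). The chemokine-scavenging receptor Ackr3 was at -0.53 (SE 0.13, adjusted p = 0.0053) and the annexin Anxa3 at -0.38 (SE 0.11, adjusted p = 0.021), a call lost without Veh NPD replicate 3 (0.052) or Veh HPD replicate 3 (0.058). The remaining 8 did not pass, with Fbn1, which encodes the microfibril protein fibrillin-1, at -0.91 (SE 0.33, adjusted p = 0.087). The median of the 11 was -0.37.

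The surface glycoproteins included the steadiest differences. Cd34 (ENSMUSG00000016494, chromosome 1 from 194938819 to 194961279), a sialomucin of stromal, endothelial and blood progenitor cells, was at 96.4, 70.4, 91.7 and 85.6 CPM in Veh NPD and at 91.2, 78.7, 99.6 and 87.4 CPM in Veh HPD. It was at 62.8, 51.2, 58.6 and 54.9 CPM in Cort NPD and at 57.8, 58.0, 53.8 and 66.0 CPM in Cort HPD. All 8 Cort libraries lay below all 8 Veh libraries. Its log2 fold change on the NPD was -0.60 (SE 0.13, adjusted p = 0.0026) and the HPD value was -0.60 (SE 0.13, adjusted p = 0.0031), and the call held in each of the 16 fits that left out 1 library on either diet.

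Ly6a (ENSMUSG00000075602, chromosome 15 from 74994877 to 74998031), the anchored antigen Sca-1, was at 162, 208, 182 and 143 CPM in Veh NPD and at 80.4, 93.1, 97.2 and 92.4 CPM in Cort NPD. On the HPD it was at 216, 168, 156 and 158 CPM in Veh and at 125, 137, 134 and 103 CPM in Cort. Cort and Veh did not overlap on either diet. On the NPD the log2 fold change was -0.93 (SE 0.14, adjusted p = 3.8e-05) and the HPD value was -0.48 (SE 0.13, adjusted p = 0.028). The 4 Cort HPD libraries all lay above the 4 Cort NPD libraries, at 125 ± 15.3 against 90.8 ± 7.25 CPM (SD, n = 4). The share of all genes that separated in this way between the diets was not counted. This difference between diets did not pass the test (0.46, SE 0.13, adjusted p = 0.16), nor did the interaction (0.45, SE 0.19, unadjusted p = 0.025, adjusted p = 0.91). The Cort effect on the HPD no longer passed in 4 of 16 cases: without Cort HPD replicate 4 (-0.40, adjusted p = 0.097), Veh HPD replicate 1 (-0.36, adjusted p = 0.16), Veh HPD replicate 2 (adjusted p = 0.052) and Cort HPD replicate 1 (adjusted p = 0.067). A run of 118 bases of a Ly6a transcript is also in Ly6c1 and one of 80 bases in Ly6i, so that counts of these genes may be mixed.

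Of 8 other genes of the Ly6 family, 6 passed the filter. Ly6c1, an antigen of endothelial cells and other cell types, was lower over both diets (-0.64, SE 0.11, adjusted p = 1.6e-04), as was the monocyte antigen Ly6c2 (-1.01, SE 0.34, adjusted p = 0.042), a call lost in 11 of the 16 fits without 1 library, with adjusted p up to 0.16 without Veh NPD replicate 1. Ly6e, which is found on many cell types, was higher (0.71, SE 0.09, adjusted p = 3.7e-06). The family thus held genes that moved in opposite directions in the same libraries.

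Thy1 (ENSMUSG00000032011, chromosome 9 from 44043384 to 44048579), an anchored glycoprotein of stromal cells, neurons and T cells, was at 19.6, 16.01, 25.9 and 26.7 CPM in Veh NPD and at 6.38, 7.05, 5.05 and 7.48 CPM in Cort NPD. In Veh HPD it was at 12.2, 9.77, 18.9 and 7.07 CPM and in Cort HPD at 6.29, 6.63, 4.52 and 4.25 CPM. The groups did not overlap within either diet, although the lowest Veh HPD library lay below the highest Cort NPD library. For Thy1 the NPD value of the log2 fold change was -1.76 (SE 0.28, adjusted p = 1.2e-04) and the HPD value was -1.15 (SE 0.28, adjusted p = 0.011). Without Veh HPD replicate 3 the HPD value was -0.84 with an adjusted p of 0.076, and limma voom gave -1.12 with an adjusted p of 0.055. The T cell antigen Cd2 was lower over both diets as well (-1.28, SE 0.29, adjusted p = 0.0021), the 1 gene called of the 8 T cell markers that passed the filter. The 10 T cell markers summed to 11.8 to 20.4 CPM in Veh NPD and 4.26 to 11.3 CPM in Cort NPD, with no overlap. On the HPD they summed to 8.67 to 11.7 CPM in Veh and 2.63 to 14.5 CPM in Cort. The value of 14.5 was Cort HPD replicate 4, and the other Cort HPD libraries were at 5.19 CPM or below. The defining Cd3e averaged 0.83 CPM in Veh NPD and 0.38 CPM in Cort NPD. The part of T cells in the level of Thy1 was not tested.

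Cd248 (ENSMUSG00000056481, chromosome 19 from 5068078 to 5070682), the endosialin of stromal cells and pericytes, did not pass the test on either diet. It was at 27.4, 24.5, 40.8 and 38.4 CPM in Veh NPD and at 26.9, 22.5, 27.0 and 25.2 CPM in Cort NPD, with overlap. It was at 27.2, 24.96, 34.7 and 15.6 CPM in Veh HPD and at 25.3, 30.5, 28.7 and 24.7 CPM in Cort HPD, also with overlap. The log2 fold change was -0.37 on the NPD (95% interval -0.77 to 0.04, adjusted p = 0.30) and 0.09 on the HPD (-0.31 to 0.49, adjusted p = 0.87). Over both diets it was -0.14 with an interval of -0.42 to 0.15, whose lower bound lies above the estimates for Pi16 (-1.52) and Thy1 (-1.46). Dropping Cort HPD replicate 4 gave 0.13 on the HPD (adjusted p = 0.82) and -0.12 over both diets (adjusted p = 0.66).

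The PDGF receptors did not pass the test, and for Pdgfra this turned on single libraries and on the method. Pdgfra (ENSMUSG00000029231, chromosome 5 from 75152292 to 75198215), a receptor tyrosine kinase used to define fat progenitors, was at 43.9, 52.7, 25.3 and 39.5 CPM in Veh NPD and at 28.7, 20.2, 26.5 and 26.6 CPM in Cort NPD. In Veh HPD it was at 49.0, 49.9, 38.6 and 35.5 CPM and in Cort HPD at 31.8, 23.3, 27.5 and 56.2 CPM. The last of these, Cort HPD replicate 4, was the highest of all 16 libraries and was the one with epididymal transcripts. On the NPD the log2 fold change was -0.66 (SE 0.24, adjusted p = 0.10), the HPD value was -0.31 (SE 0.24, adjusted p = 0.53) and the value over both diets was -0.49 (SE 0.17, adjusted p = 0.055). Without that library it was -0.66 on the NPD (adjusted p = 0.020), -0.65 on the HPD (adjusted p = 0.058) and -0.66 over both diets (adjusted p = 9.5e-04). The share of its Pdgfra reads that came from epididymis was not tested. Leaving out Veh NPD replicate 3, the low Veh library, also made the NPD call (-0.83, adjusted p = 0.029). With all libraries kept, Pdgfra passed over both diets in 3 of 6 alternative fits (DESeq2, limma voom and library totals, adjusted p 0.031 to 0.046) and on the NPD in 1 of 7, the fit of only the 2 groups compared (0.023).

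Pdgfrb (ENSMUSG00000024620), the receptor of stromal and mural cells, was at 20.6, 18.8, 25.6 and 24.2 CPM in Veh NPD and at 17.7, 11.7, 15.5 and 22.1 CPM in Cort NPD. It was at 28.9, 31.9, 21.8 and 10.9 CPM in Veh HPD and at 11.2, 24.4, 15.1 and 12.6 CPM in Cort HPD. The groups overlapped on both diets. On the NPD the log2 fold change was -0.41 (SE 0.28, adjusted p = 0.46), the HPD value was -0.57 (SE 0.28, adjusted p = 0.27) and the value over both diets was -0.49 (SE 0.20, adjusted p = 0.097). The value over both diets passed the test when Veh HPD replicate 4 was dropped (-0.61, adjusted p = 0.0086) or Cort HPD replicate 2 was (-0.63, adjusted p = 0.023), and the HPD value passed without Veh HPD replicate 4 (-0.81, adjusted p = 0.034). With Cort HPD replicate 4 dropped it was -0.48 on the HPD (adjusted p = 0.46) and -0.44 over both diets (adjusted p = 0.16).

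Of the 4 ligands of these receptors, all of which passed the filter, Pdgfd, whose product acts mainly on Pdgfrb, was lower over both diets (-0.90, SE 0.22, adjusted p = 0.0052). Pdgfc, whose product acts on Pdgfra, was higher (0.52, SE 0.14, adjusted p = 0.011). Pdgfa (0.36, SE 0.15, adjusted p = 0.10) and Pdgfb (-0.43, SE 0.36, adjusted p = 0.50) did not pass.

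Dlk1 (ENSMUSG00000040856, chromosome 12 from 109452823 to 109463336), also called preadipocyte factor, had few reads. The 4 Veh NPD libraries held 22, 15, 24 and 13 counts (0.896 to 1.61 CPM), and the 4 Veh HPD libraries held 25, 25, 11 and 5 counts (0.324 to 1.59 CPM). The Cort NPD libraries held 9, 0, 2 and 0 counts and the Cort HPD libraries 0, 1, 0 and 39 counts. Thus 7 of the 8 Cort libraries were at 9 counts or fewer, and Cort HPD replicate 4, at 2.51 CPM, was above every other library. The fitted log2 fold change was -2.61 on the NPD (SE 1.40, adjusted p = 0.30), -0.54 for the HPD (SE 1.29, adjusted p = 0.88) and -1.57 over both diets (SE 0.95, adjusted p = 0.29). The value over both diets passed in 1 of 6 alternative fits with no single library dropped. Without Cort HPD replicate 4 it passed the test (-3.65, adjusted p = 0.020). The 3 other Cort HPD libraries each held at most 1 count, below a limit of 3 counts per library, 0.252 CPM. The Veh HPD mean of 0.972 CPM was 3.85 times that limit, but the lowest Veh HPD library was at 0.324 CPM. This ratio leaves out Cort HPD replicate 4. Of 6 genes listed beside Dlk1 as Notch ligands, receptors or a paralog, 5 passed the filter and the ligand Dll1 was the 1 gene called (-2.20, SE 0.53, adjusted p = 0.0043).

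**Figure D2:**
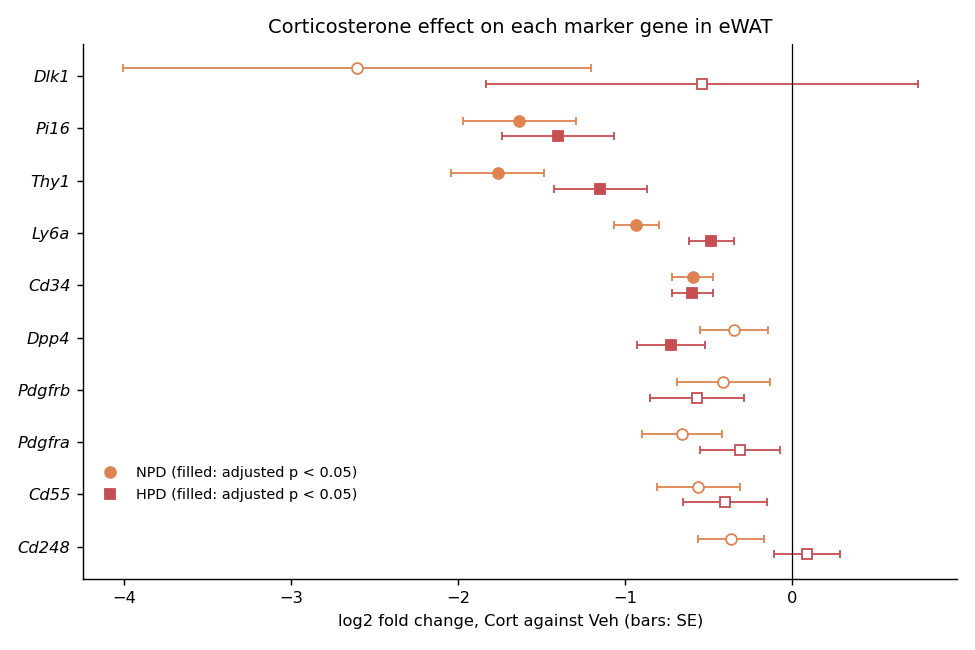
Log2 fold change of Cort against Veh (horizontal axis, with SE) for each of the 10 genes (vertical axis), on the NPD (circles) and the HPD (squares); filled symbols passed an adjusted p of 0.05. Pi16, Thy1, Ly6a and Cd34 are filled on both diets and Dpp4 on the HPD alone, and Dlk1 has the widest errors.

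Counted by overlap, all 4 Cort libraries lay below all 4 Veh libraries for 6 genes on the NPD (Pi16, Cd34, Ly6a, Cd55, Dlk1 and Thy1), as they did for 7.39% of all genes tested. On the HPD they did so for 5 genes (Dpp4, Pi16, Cd34, Ly6a and Thy1), against 5.39% of all genes. Over both diets, all 8 Cort libraries lay below all 8 Veh libraries for Pi16, Cd34 and Ly6a, against 1.34% of all genes.

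None of the 10 genes passed the test for diet. Between HPD and NPD in Veh mice, 0.0593% of all genes were called in either direction. Of all 15187 genes, 1219 had an unadjusted p under 0.05, and of the 10 genes 1 did. This was Thy1, at 11.98 ± 5.06 CPM in Veh HPD and 22.1 ± 5.13 CPM in Veh NPD (SD, n = 4), a log2 fold change of -0.88 (SE 0.27, unadjusted p = 0.0027, adjusted p = 0.26). It passed the test without Veh HPD replicate 3, the highest library of its group (-1.19, adjusted p = 0.046). Between HPD and NPD in Cort mice, 0.487% of all genes were called. Here 1490 of all 15187 genes had an unadjusted p under 0.05, and Ly6a was the 1 such gene of the 10. For none of the 10 genes did the effect of Cort differ between the diets at an adjusted p under 0.05. Of all genes, 0.0132% were called for this interaction. Its unadjusted p was under 0.05 for 784 of all 15187 genes, and Ly6a again was the 1 such gene of the 10. DESeq2 and limma voom called none of the 10 genes in these 3 comparisons either. The median of the 10 log2 fold changes was -0.12 for diet in Veh, 0.01 for diet in Cort and 0.29 for the interaction. The comparisons share groups of libraries, so their values for 1 gene are not independent.

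The gene lists of other stromal and vascular cells were read in the same fit, as counts of genes called over both diets. Of 13 fibroblast matrix genes, 10 were lower and none higher, with a median of -1.01. Among them were Mmp2, which encodes a gelatinase (-1.65, SE 0.19, adjusted p = 9.4e-07), the proteoglycan gene Lum (-1.40, SE 0.15, adjusted p = 3.0e-07) and the collagen gene Col1a2 (-1.27, SE 0.16, adjusted p = 1.5e-05). Other genes of the list, Sparc (0.18, SE 0.11, adjusted p = 0.30) and Col5a1 (0.08, SE 0.15, adjusted p = 0.80) did not pass the test.

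Markers of committed preadipocytes went both ways, with 3 of 8 higher and 3 lower. Zfp423, a transcription factor of preadipocytes, was higher (0.75, SE 0.10, adjusted p = 4.8e-06), as was the basement membrane collagen Col4a2 (0.75, SE 0.11, adjusted p = 1.3e-05). Sparcl1, a secreted matrix protein, was lower (-0.90, SE 0.13, adjusted p = 1.7e-05). Of 5 markers of the F3 lineage, the monooxygenase Fmo2 was higher (0.88, SE 0.12, adjusted p = 8.7e-06), and the growth factor Gdf10 (-0.61, SE 0.16, adjusted p = 0.010) and the matrix gene Vit (-0.61, SE 0.17, adjusted p = 0.017) were lower.

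Among markers of vessel walls, 3 of 11 pericyte and smooth muscle genes were lower and none higher, led by the pericyte regulator Rgs5 (-1.33, SE 0.18, adjusted p = 8.6e-05) and Notch3 (-0.95, SE 0.23, adjusted p = 0.0046). Acta2, the smooth muscle actin, was at -0.86 (SE 0.25, adjusted p = 0.034), a call lost in 11 of the 16 fits without 1 library, with adjusted p up to 0.069. Of 10 endothelial genes, 5 were lower and none higher, among them the tight junction gene Cldn5 (-1.17, SE 0.15, adjusted p = 7.1e-06), the angiopoietin receptor Tek (-0.83, SE 0.17, adjusted p = 9.7e-04) and the adhesion gene Esam (-0.48, SE 0.11, adjusted p = 0.0030). Summed over the list, endothelial markers were at 635 to 1162 CPM in Veh and 515 to 722 CPM in Cort, so that the groups overlapped. The pericyte list was at 614 to 965 CPM in Veh NPD and 406 to 578 CPM in Cort NPD, with no overlap. On the HPD it was at 420 to 825 CPM in Veh and 472 to 561 CPM in Cort, with overlap. Since Cd34, Ly6a, Pdgfrb and Cd248 are also on vessel cells, these values stand beside theirs, and the part of vessel cells in them was not tested.

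Among the remaining lists, 2 of 10 mesothelial genes were lower (Lrrn4 at -0.73, SE 0.20, adjusted p = 0.014, and Gpm6a at -0.54, SE 0.14, adjusted p = 0.0062). Of 11 macrophage genes, 3 were lower, including the mannose receptor Mrc1 (-0.58, SE 0.10, adjusted p = 1.9e-04) and Adgre1 (-0.62, SE 0.12, adjusted p = 3.9e-04), and the lysosomal Cd68 was higher (0.61, SE 0.13, adjusted p = 0.0015). The 2 B cell genes that passed the filter, Cd79b (-1.79, SE 0.89, adjusted p = 0.19) and Ms4a1 (-0.78, SE 0.88, adjusted p = 0.62), did not pass the test. Of 12 mature adipocyte genes, 4 were higher, including the glucose transporter Slc2a4 (0.79, SE 0.14, adjusted p = 6.1e-04), and 2 were lower, the hormone gene Adipoq (-0.69, SE 0.10, adjusted p = 1.8e-05) and the complement factor Cfd (-1.92, SE 0.25, adjusted p = 1.7e-04). Of 4 complement regulators tested beside Cd55, Cd59a was lower (-0.35, SE 0.09, adjusted p = 0.0072). Of 6 proliferation genes, 4 were lower and none higher, including Top2a (-1.84, SE 0.33, adjusted p = 5.5e-04), Cdk1 (-1.96, SE 0.40, adjusted p = 8.1e-04) and Mki67 (-2.42, SE 0.64, adjusted p = 0.0099). Transcripts of red blood cells summed to 12684 to 25856 CPM in the 4 Cort HPD libraries and to 3619 to 9273 CPM in the other 12, so they moved with the Cort effect on the HPD and not on the NPD. Over both diets 2 of its 5 genes were higher, Hba-a1 (0.63, SE 0.19, adjusted p = 0.037) and Hbb-bt (0.67, SE 0.20, adjusted p = 0.039), calls lost in 9 and 10 of the 16 fits without 1 library, with adjusted p up to 0.087 and 0.084. Whether blood in the tissue took part in the HPD values of the 10 genes was not tested.

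Cort HPD replicate 4 was left out here after the data were seen. The number of the 10 markers called lower over both diets then rose from 5 to 7. Besides the epididymal genes, 5 of the other list counts over both diets changed as well. Lower calls went from 3 to 4 among the other Dpp4-lineage markers, from 5 to 4 among endothelial genes and from 2 to 1 in the Ly6 family, where Ly6c2 lost the call (adjusted p = 0.056). A pericyte or smooth muscle gene was then called higher, 1 against 0, and no red blood cell gene was called, 0 against 2 (Hba-a1 at 0.60, adjusted p = 0.065, and Hbb-bt at 0.62, adjusted p = 0.072). Of the 4 epididymal genes tested, 1 was then called higher over both diets, against 0 with all libraries. The counts of the other lists given here were the same.

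**Figure D3:**
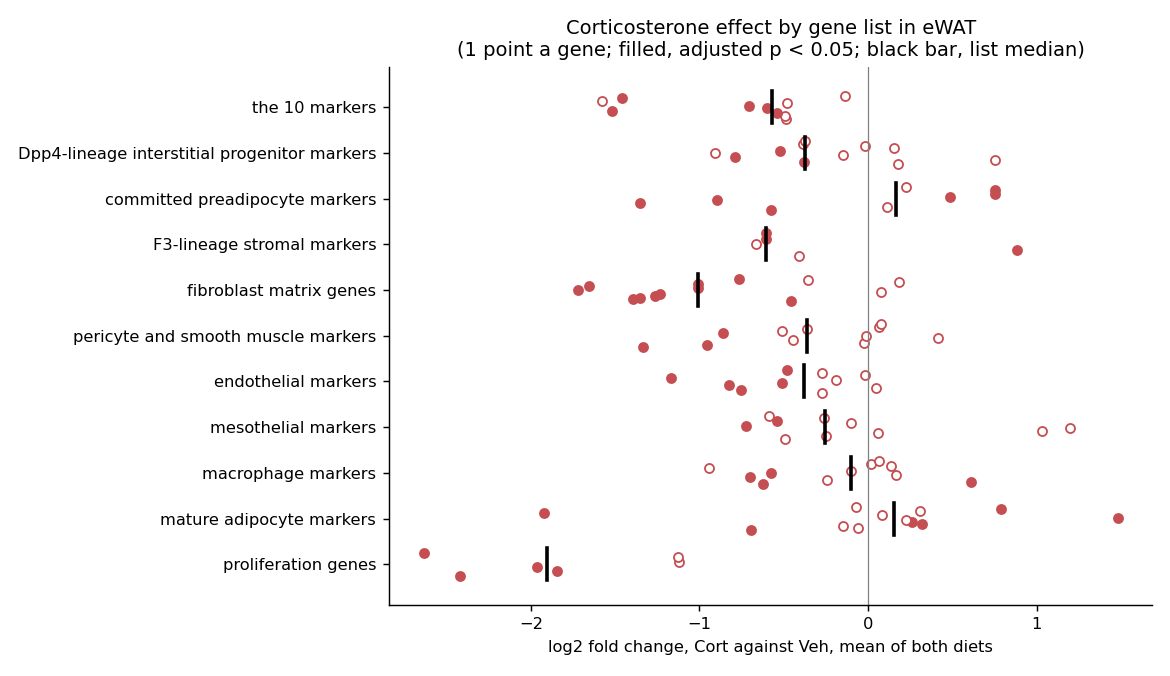
Log2 fold change of Cort against Veh, mean of both diets (horizontal axis), for each gene of 11 lists (vertical axis); 1 point is a gene, filled where its adjusted p was under 0.05, and the black bar is the list's median. The 10 markers have a median of -0.57, fibroblast matrix genes one of -1.01, and committed preadipocyte markers lie on both sides of 0.

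Within groups the 10 genes did not vary as 1 block. After the mean of each group was removed from log2 CPM (prior count 2), the 45 pairs of genes had a median Pearson r of 0.13 over the 16 libraries, and 27 pairs were positive. These are descriptions, with no test, over libraries that share their scaling. The closest pairs were Thy1 with Cd248 (r = 0.79, Spearman rho 0.69), Cd55 with Thy1 (r = 0.68, rho 0.41), Cd55 with Cd248 (r = 0.68, rho 0.57) and Pdgfrb with Cd248 (r = 0.67, rho 0.67). Ly6a ran against Cd34 (r = -0.50, rho -0.44) and Pi16 (r = -0.49, rho -0.36). Without Cort HPD replicate 4 these were -0.40 and -0.41. Pdgfra with Dlk1 was at 0.64 with that library and at 0.25 without it, whereas the pair Thy1 with Cd248 was at 0.78 without it. Over the 15 remaining libraries, 33 pairs were positive and the median was 0.21.

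**Figure D4:**
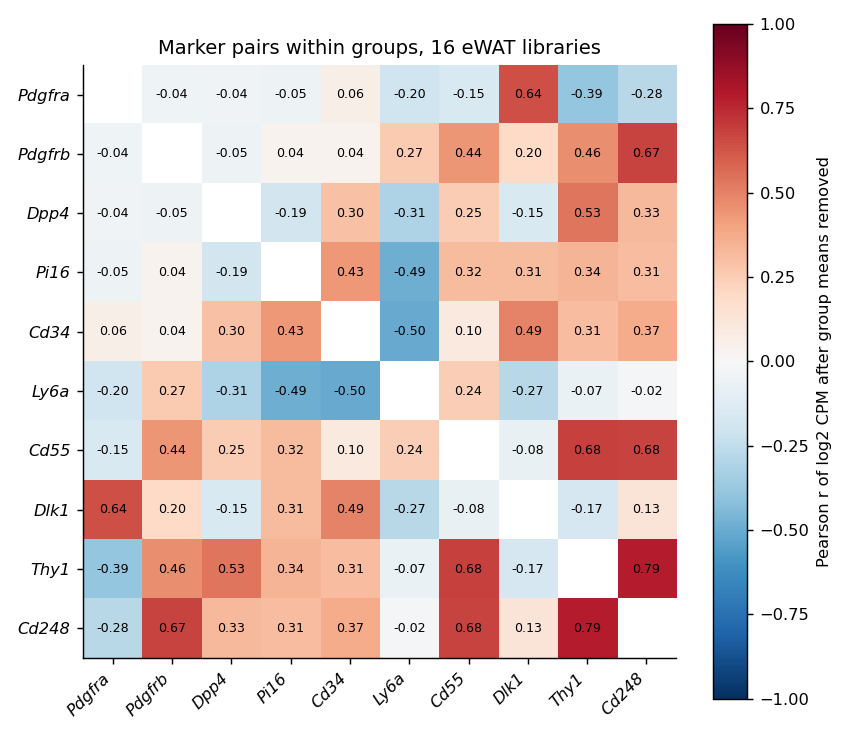
Pearson r of log2 CPM between each pair of the 10 genes over the 16 eWAT libraries after group means were removed; both axes list the genes, and colour runs from -1 (blue) to 1 (red). The block of Pdgfrb, Cd55, Thy1 and Cd248 is mostly red, with the highest value of 0.79 for Thy1 and Cd248, and Ly6a is blue against Cd34 and Pi16.

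The genes outside the set whose residual pattern was most like each member's were found by the same measure over the 16 libraries. For Cd248 they were Sparc (r = 0.95) and Tln1 (0.91), for Cd34 Pdpn (0.93) and Cklf (0.86), for Thy1 Fbn1 (0.92) and Impad1 (0.91), and for Cd55 Ctsb (0.91) and Tpm4 (0.91). For Pdgfrb they were Ckap4 (0.91) and Iqgap1 (0.91), for Dlk1 Smpd5 (0.91) and Sdc1 (0.90), for Ly6a Dennd1a (0.87) and Cachd1 (0.87), and for Pdgfra Sult5a1 (0.87) and Ccni (0.85). Pi16 was closest to March9 (0.87) and Rhobtb1 (0.84), and Dpp4 to Tmem184b (0.85) and Ppfia3 (0.84). Of these 20 genes, Ckap4 was the 1 gene called for Cort over both diets (-0.73, adjusted p = 0.0036). Without Cort HPD replicate 4 the value for Dlk1 with Sdc1 was 0.71 and with Smpd5 0.83, and the other 18 values lay between 0.81 and 0.95. The highest of 15187 coefficients over 16 libraries is large by its selection.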

How the data were processed

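RNA from eWAT and liver of 32 libraries was read from the 3′ end of transcripts (Quant-Seq kit) and aligned to GRCm38 (mm10) per the labels, whose processing notes also name R 4.0.3 and limma. The aligner and counting program are not given in the sources used here. What the authors deposited is a table of raw counts, 1 row for each Ensembl gene, with no normalization. Symbols were taken from GENCODE M21, which named 47224 of 47643 identifiers.

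The 16 eWAT libraries of 4 groups were fitted together with edgeR 4.0.16 in R 4.3.3. Genes were kept by filterByExpr (minimum count 10, minimum total 15), scaled by TMM (factors 0.928 to 1.06) and tested with the robust quasi-likelihood test. P-values were adjusted by Benjamini-Hochberg over 15187 genes and called under 0.05. Correlations used log2 CPM with a prior count of 2. Liver was scaled apart and given as levels.

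Alternatives were relative log expression factors, library totals, no filter, only the 2 groups compared, a replicate block, DESeq2 1.42.0, limma 3.58.1 voom, and leaving out each library. The script was tested on simulated data. No replicate pair of the 24 was identical, and their mean chi-square per gene ran from 15.5 to 73.8. Depth limits Dlk1 most, and the limit of 3 counts covers counting error only.

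The members and lists were chosen with earlier results of these data known. All 10 members are named. Of each other list, up to 3 called genes with the smallest p over both diets are named, and for each member the 2 genes most alike within groups. Pdgfa, Pdgfb, Col5a1, Cd3e, Zbtb16, Cd79b and Ms4a1 were named after their values were seen.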

Additional observations from a re-analysis of the deposited data

Results flagged for a closer look

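Among the 40 sets of 4 libraries (10 genes in 4 groups), 2 had a library far from the other 3. The limit used would flag about 1 in 20 sets if values were normally spread. Why these 2 were flagged was not tested. Dpp4 was at 30.8 CPM in Veh HPD replicate 3, where the nearest library of the group was at 21.1 CPM (gap over range 0.854). Without it the log2 fold change of Cort against Veh on the HPD went from -0.73 to -0.55 (adjusted p = 0.16, edgeR). Dlk1 was at 2.51 CPM in Cort HPD replicate 4, where the nearest was at 0.105 CPM (gap over range 0.958). The same library held the epididymal transcripts, at 11584 CPM, and the part of that tissue in its Dlk1 level was not tested.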

How the results depend on the processing

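The number of the 10 genes called for Cort was 4 to 6 on the NPD and 3 to 5 on the HPD with 7 alternatives, and 5 to 7 over both diets with 6, since the fit of only 2 groups could not give it. The value of 3 came from fitting only the 2 groups compared, where Dpp4 (adjusted p = 0.069) and Ly6a (0.059) lost the call. Leaving out each library gave 4 to 5, 2 to 6 and 5 to 7, and 0 to 1 for diet in Veh, 0 to 0 for diet in Cort and 0 to 0 for the interaction. The labels share replicate numbers, but same-numbered libraries did not deviate together (24 pairs, r -0.12 to 0.25, 1 over 0.1, and 6 of 16 libraries closest to their own number). With the replicate as a block, 4, 5 and 5 genes were called for Cort and 0 in each diet comparison. Differences that did not pass the test changed sign in the following cases. Pdgfrb for diet in Veh was -0.0094 with limma voom, and Pi16 for diet in Cort was 0.018 with library totals. The interaction of Cd34 was 0.0043 with relative log expression factors, 0.046 with library totals, 1.0e-04 with the replicate block and 0.0047 with DESeq2. Without 1 library, the Cort effect on the HPD ran from -0.61 to 0.011 for Cd55 and from -0.086 to 0.27 for Cd248. Diet in Veh ran from -0.069 to 0.25 for Pdgfra, -0.12 to 0.31 for Pdgfrb, -0.14 to 0.10 for Dpp4, -0.032 to 0.11 for Cd34 and -0.12 to 0.11 for Ly6a. Diet in Cort ran from -0.37 to 0.072 for Pdgfrb, -0.20 to 0.22 for Pi16, -0.0086 to 0.10 for Cd34 and -2.43 to 3.45 for Dlk1. The interaction ran from -0.44 to 0.037 for Pdgfrb, -0.061 to 0.084 for Cd34, -0.050 to 0.57 for Cd55 and -2.07 to 3.80 for Dlk1. The cause was not tested.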
